A study of Rattus with 8 samples.

Results

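Cultured rat neural stem cells grown with piezoelectric nanostickers were compared with cultures treated with ultrasound, gene by gene, from messenger RNA sequenced on day 5. The comparison takes 4 of the 8 libraries of the series, 2 of each group, chosen by their labels, and all 14336 genes with enough reads to be tested of the 18374 in the deposited table. The tested cells were neural stem cells cultured with piezoelectric nanostickers (nanosticker), set against neural stem cells treated with ultrasound (ultrasound). Of the remaining libraries, 2 came from cells cultured with a piezoelectric material (piezoelectric) and 2 from cells treated with nothing (control), and their levels stand beside those of the compared groups as a description. Whether the nanosticker cultures also received ultrasound is not stated in their labels, although the series title speaks of nanostickers that ultrasound activates for cell therapy after brain injury. They give neither the composition of the nanostickers nor how they differ from the piezoelectric material, and neither the strain nor the age of the source animals. Nothing in the labels tells if the 2 libraries of a group are separate cultures. The p-values measure only the spread between libraries, which may be technical.

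Neural stem cells divide and give rise to neurons, astrocytes and oligodendrocytes, and lineage factors such as Sox10 in oligodendrocytes or the Dlx homeobox genes in inhibitory interneurons mark the choice that a cell has made. Oligodendrocytes wrap axons in myelin, astrocytes take up glutamate and exchange ions and water, and microglia, the immune cells of the brain, come from the yolk sac and not from neural stem cells. A piezoelectric material turns mechanical deformation, such as that caused by ultrasound, into electric charge, which can act on the membrane of a cell lying against it.

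The libraries held between 15239133 and 15628667 counts, and between 16497 and 16613 genes had a count above 0. The 4 groups therefore had nearly the same depth. The labelled cell type was checked against its markers: Sox2, a transcription factor of neural stem cells, had 379.6 and 418 CPM (counts scaled to the library's total) in the nanosticker libraries and 265 and 262 CPM in the ultrasound libraries, and Nes, the intermediate filament nestin, had 315 and 309 CPM in nanosticker and 458 and 483 CPM in ultrasound libraries. Per unit of transcript length, Sox2 averaged 288 TPM (transcript counts scaled to length and library) in the nanosticker group and 189 TPM in the ultrasound group. Transcripts of differentiated glia stood far above that level: the myelin gene Mbp averaged 11656 TPM in nanosticker and 4422 TPM in ultrasound cultures, and the astrocyte lipid carrier Apoe 5614 TPM in nanosticker and 15113 TPM in ultrasound cultures. The libraries thus hold markers of stem cells and of differentiated glia together.

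The nanosticker and ultrasound libraries differed at 4938 of the 14336 tested genes, 34.4%. Of these, 2517 genes, 17.6% of those tested, were higher in the nanosticker group and 2421, 16.9%, were lower. A gene was called when its p from edgeR's quasi-likelihood test, adjusted by Benjamini and Hochberg's method over all tested genes, was below 0.05. The spread was estimated from all 8 libraries, and every log2 fold change below is nanosticker over ultrasound ± its standard error (SE), from 2 libraries a group. Amounts by which a gene rose or fell are on this log2 scale. Most changes were small: the median log2 fold change of the called genes was 0.48 among higher and -0.50 among lower ones, and 517 higher and 492 lower genes had changed at least 2-fold. The median over all tested genes was -0.01. The shares of 17.6% higher and 16.9% lower are those to set beside every list count below.

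**Figure D1:**
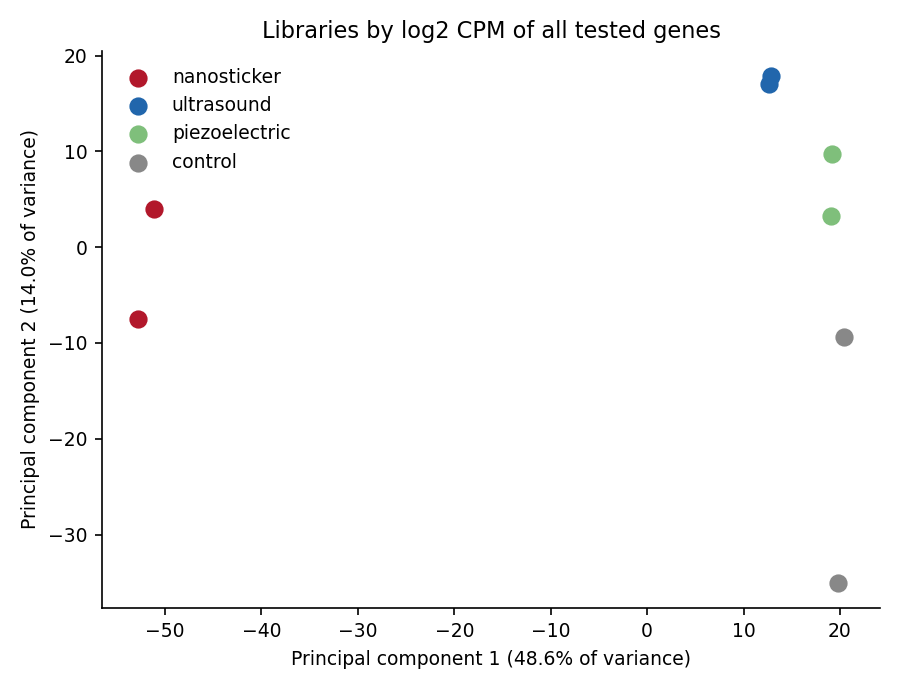
Libraries on the first principal components of log2 CPM over all tested genes, with the share of variance on each axis. The 2 nanosticker libraries lie alone at the low end of the first component, which carries 48.6% of the variance, and the ultrasound, piezoelectric and control libraries lie together at its high end.

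In the log2 CPM of all tested genes the distance between a nanosticker and an ultrasound library was 76.1 to 79.0, against 45.3 between the nanosticker libraries and 45.1 between the ultrasound libraries. The plot of principal components shows the same separation. Distances of nanosticker libraries to control libraries were 81.3 to 85.7, and those of ultrasound libraries to control libraries 52.6 to 59.9. Ultrasound thus lay nearer to control than nanosticker did in every pair of libraries.

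**Figure D2:**
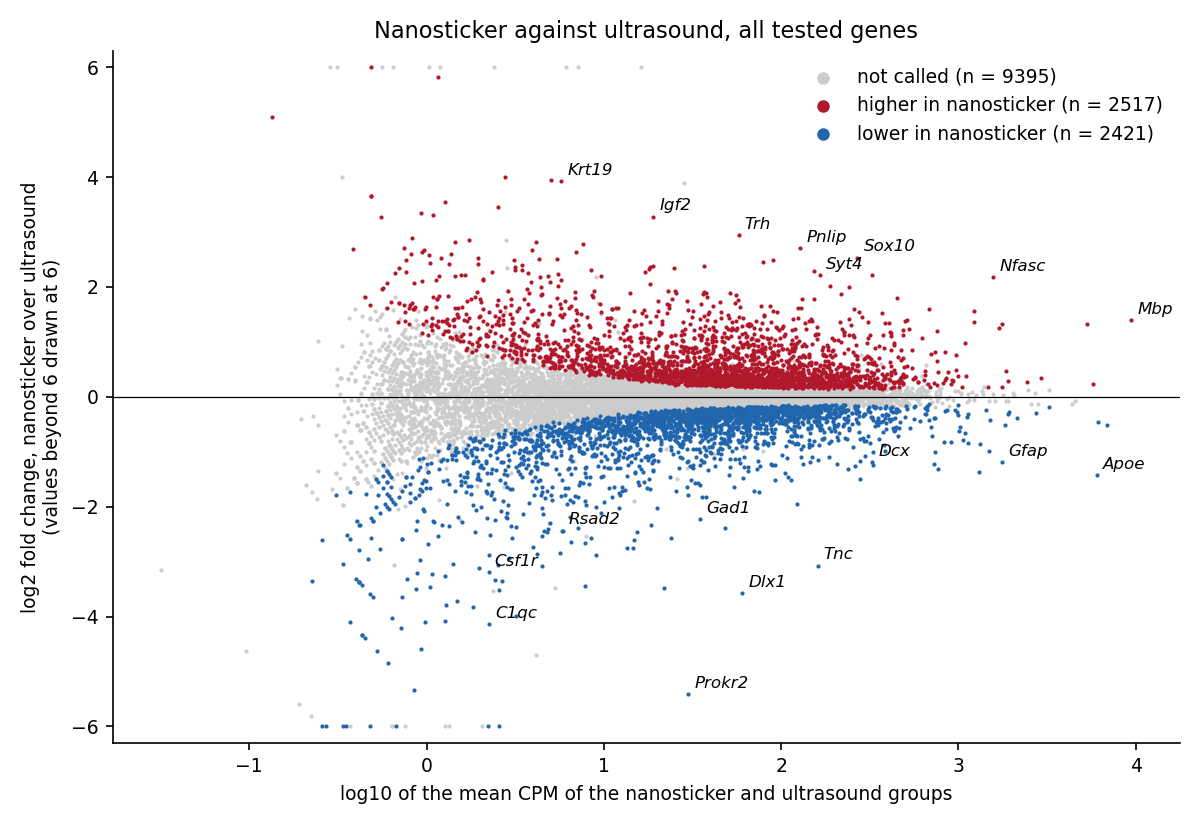
The log2 fold change of each tested gene, nanosticker over ultrasound, against log10 of its mean CPM in both groups, with genes called higher in red, lower in blue and not called in grey. Mbp lies above 0 at the highest level, Apoe and Gfap lie below 0, and Prokr2, Dlx1 and Tnc stand far below the other genes of their level; genes with a fitted value beyond 6, among them genes without a count in one group, are drawn at the edge, and 3 tested genes without a count in either group are not drawn.

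Genes of the oligodendrocyte lineage were higher in the nanosticker libraries. On the list of oligodendrocyte and myelin genes 13 of 18 tested members rose and 2 fell, with a median log2 fold change of 1.01, and on the list of oligodendrocyte precursor genes 11 of 17 rose and none fell, with a median of 0.59. Over all tested genes 17.6% rose. Summed over the 18 myelin genes, the level was 27391 and 27069.2 CPM in the nanosticker libraries, against 10744.8 and 10946.7 CPM in the ultrasound libraries. In bulk RNA a change in the number of cells of a type and a change in RNA per cell cannot be told apart.

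Sox10 (gene 29361, chromosome 7, 120393238 to 120403523, minus strand, Rnor 6.0), the factor that drives oligodendrocyte differentiation, had 458 and 459.8 CPM in the nanosticker libraries, against 82.5 and 75.9 CPM in the ultrasound libraries. Both nanosticker values stood far above both ultrasound values, a log2 fold change of 2.53 ± 0.058 (adjusted p = 6.28e-11). The piezoelectric mean of 111 ± 1.83 CPM and the control mean of 115 ± 1.36 CPM (± SD, n = 2 each) lay slightly above ultrasound and well below nanosticker. Myrf, the transcription factor that switches on myelin genes, had 695 and 712 CPM in nanosticker and 208 and 196 CPM in ultrasound libraries, a log2 fold change of 1.80 ± 0.071 (adjusted p = 2.15e-09). Nkx2-2, a homeobox factor of the same lineage, changed by 1.22 ± 0.068.

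Mbp (gene 24547, chromosome 18, 79326738 to 79437310, plus strand), which encodes myelin basic protein, had 13674 and 13683 CPM in the nanosticker libraries and 5141 and 5246 CPM in the ultrasound libraries. The log2 fold change was 1.40 ± 0.051 (adjusted p = 1.36e-09), and the piezoelectric mean of 3696 ± 77.6 CPM and the control mean of 3735 ± 16.2 CPM were below both groups. Mag, a myelin adhesion molecule that faces the axon, had 1009 and 1044 CPM in nanosticker and 335 and 346 CPM in ultrasound libraries. Ugt8, the enzyme that makes the myelin lipid galactocerebroside, had 561 and 546 CPM in nanosticker and 219 and 219 CPM in ultrasound libraries. In each of these genes the libraries of the groups were more than 2-fold apart, with log2 fold changes of 1.59 ± 0.057 for Mag and 1.34 ± 0.051 for Ugt8. Bcas1, a marker of oligodendrocytes that have begun to form myelin, had 1768 and 1759.7 CPM in nanosticker and 679.9 and 699 CPM in ultrasound libraries and changed by 1.35 ± 0.053. Enpp6, an enzyme of newly formed oligodendrocytes, changed by 2.50 ± 0.083, though part of its reads are shared with other features and the value is uncertain.

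The lineage genes did not all move. Mal, a proteolipid of compact myelin, had 21.2 and 21.3 CPM in the nanosticker libraries, against 37.2 and 33.1 CPM in the ultrasound libraries, and fell by 0.73 ± 0.091 on the log2 scale (adjusted p = 4.42e-05). Plekhb1 fell slightly, with a log2 fold change of -0.30 ± 0.063 (adjusted p = 0.00236), a call that was lost without ultrasound library 1 (adjusted p = 0.0523). Chosen after their values were seen, Mog, which encodes a late myelin glycoprotein, had a log2 fold change of 0.15 ± 0.095 that did not pass the test, and Pdgfra, the receptor that defines oligodendrocyte precursors, one of 0.03 ± 0.063 that did not pass it either. Olig2, the factor shared by precursors and mature cells, had 502 and 508 CPM in nanosticker and 368 and 380.3 CPM in ultrasound libraries, a log2 fold change of 0.43 ± 0.055 (adjusted p = 4.85e-05). The log2 fold change of Sox10 exceeded that of Olig2 by many times their standard errors.

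Further genes of this lineage were looked up after their values were seen. Nfasc, which encodes the adhesion molecule neurofascin of nodes and paranodes, had 2598 and 2523 CPM in the nanosticker libraries and 570.2 and 562 CPM in the ultrasound libraries. Tppp, a microtubule-nucleating protein of oligodendrocytes, had 538 and 532 CPM in nanosticker and 114 and 117 CPM in ultrasound libraries. Both stood more than 4-fold higher in the nanosticker libraries, with log2 fold changes of 2.18 ± 0.11 and 2.22 ± 0.073. Plxnb3, a semaphorin receptor, Dusp15, a phosphatase, and Tubb4a, a tubulin abundant in myelinating cells, rose by 1.99 ± 0.073, 2.02 ± 0.062 and 1.57 ± 0.060. Opalin, which encodes a myelin membrane protein, rose by 2.05 ± 0.13. It is already counted on the oligodendrocyte and myelin list, and Plxnb3 also stands on the axon guidance list.

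Markers of Schwann cells, the myelinating cells of peripheral nerve, moved in part with them. On that list, which shares Sox10 with the precursor list, 8 of 12 tested genes rose and 2 fell, with a median log2 fold change of 0.80. Its summed level was 1492 and 1500.2 CPM in the nanosticker libraries, against 1604 and 1614 CPM in the ultrasound libraries, and no member was at 0. Erbb3, a neuregulin receptor, changed by 1.65 ± 0.10. S100b and Pmp22, in contrast, fell by 0.82 ± 0.057 and 0.76 ± 0.059. The part of Schwann-like cells in the myelin result was not tested.

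**Figure D3:**
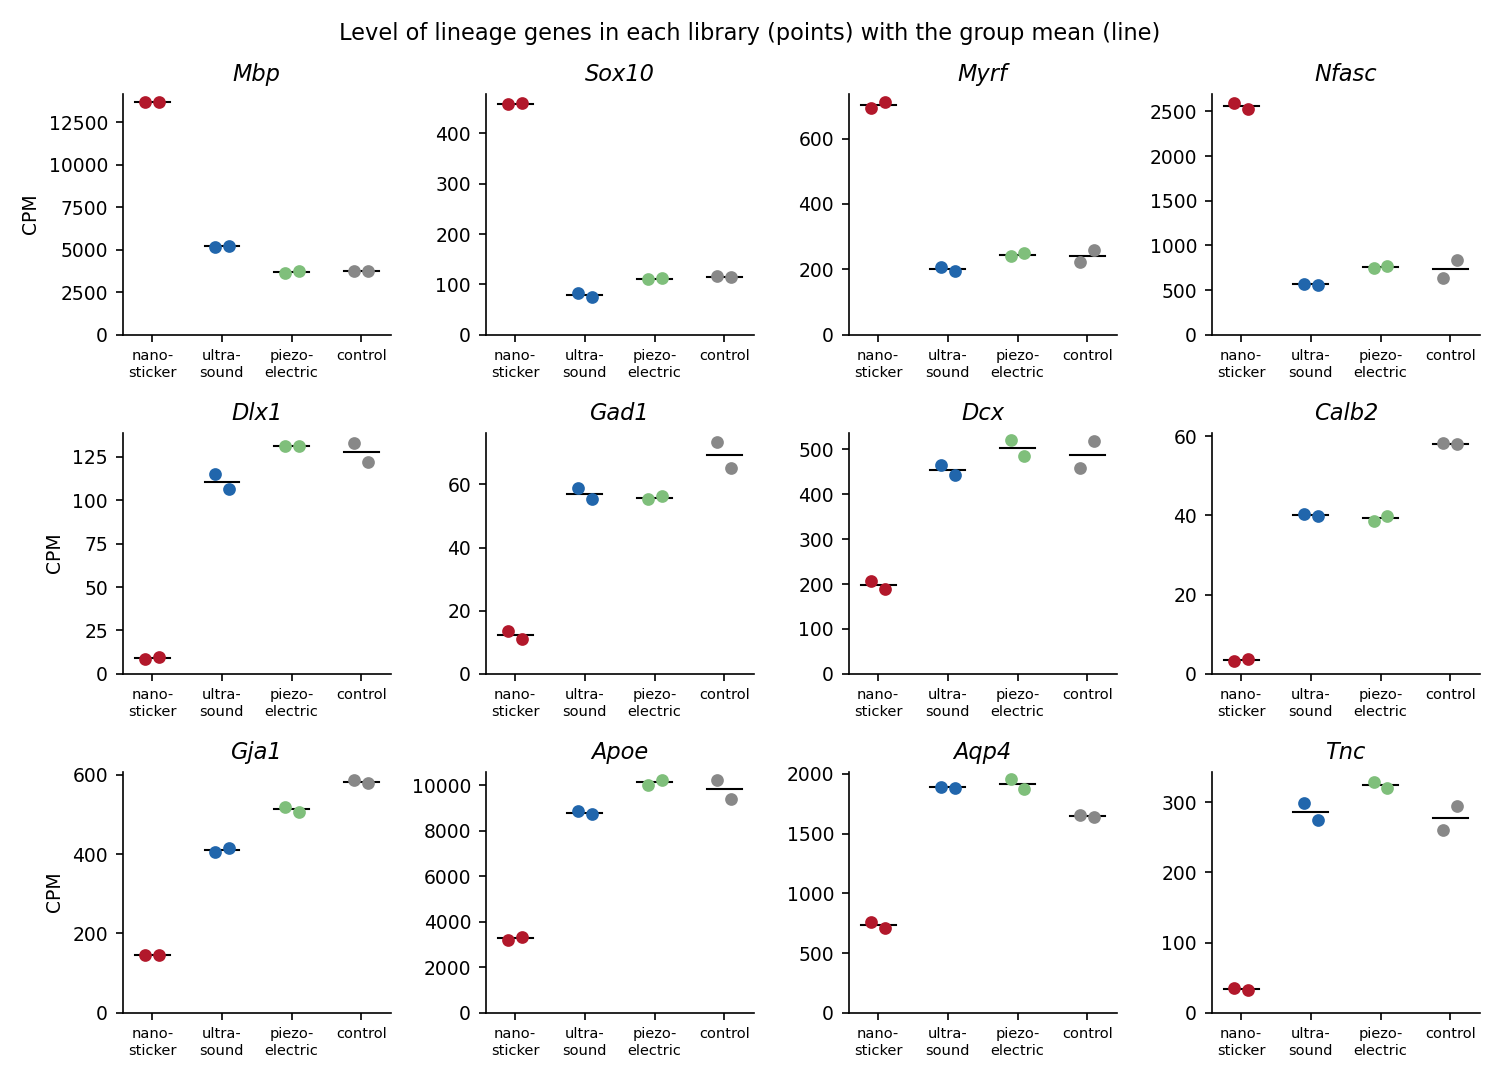
CPM of 12 lineage genes in each of the 8 libraries (points) with the group mean (line), on linear axes from 0. The nanosticker libraries are highest for Mbp, Sox10, Myrf and Nfasc and lowest for Dlx1, Gad1, Dcx, Calb2, Gja1, Apoe, Aqp4 and Tnc, without overlap with any other library.

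Genes of inhibitory interneurons fell almost as a whole. Of 14 tested interneuron and Dlx genes 13 were lower in the nanosticker libraries and none was higher, with a median log2 fold change of -2.11, against 16.9% of all tested genes that were lower. Summed over the 14 genes, the level was 284.5 and 278 CPM in the nanosticker libraries, against 699 and 689 CPM in the ultrasound libraries. The count stayed at 13 whichever library was left out.

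Dlx1 (gene 296500, chromosome 3, 58164931 to 58169521, plus strand), a homeobox factor of interneuron precursors, had 8.67 and 9.91 CPM in the nanosticker libraries, against 115 and 107 CPM in the ultrasound libraries. That is a log2 fold change of -3.57 ± 0.087 (adjusted p = 6.28e-11), and the piezoelectric mean of 131 ± 0.0313 CPM and the control mean of 128 ± 7.49 CPM lay near ultrasound. Dlx5, of the same family, had 1.26 and 1.35 CPM in nanosticker and 14.6 and 13.9 CPM in ultrasound libraries. Calb2, which encodes the calcium-binding protein calretinin of one interneuron class, had 3.31 and 3.84 CPM in nanosticker and 40.3 and 39.9 CPM in ultrasound libraries. Both genes were more than 8-fold lower in the nanosticker libraries, with log2 fold changes of -3.45 ± 0.16 and -3.48 ± 0.10. Gad1, the enzyme that makes the transmitter GABA, had 13.5 and 10.9 CPM in nanosticker and 58.7 and 55.4 CPM in ultrasound libraries, a log2 fold change of -2.22 ± 0.10 (adjusted p = 5.76e-09). Sp9, a zinc-finger factor of the same lineage, fell by 2.89 ± 0.19. The member that did not pass the test was Dlx6, at a log2 fold change of -0.62 ± 0.73.

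Most young neuron genes were lower too. Of 16 tested, 11 fell and 3 rose, and the median log2 fold change was -0.61. Their summed level differed less, at 2588 and 2522 CPM in the nanosticker libraries, against 3059 and 2952 CPM in the ultrasound libraries. Dcx, the microtubule protein doublecortin of migrating neurons, had 207 and 189 CPM in the nanosticker libraries, against 464 and 442 CPM in the ultrasound libraries, and Tubb3, the tubulin of young neurons, had 78 and 81.7 CPM in nanosticker and 183 and 188 CPM in ultrasound libraries. Both were lower in each nanosticker library than in each ultrasound library, with log2 fold changes of -1.19 ± 0.071 and -1.22 ± 0.070. Cd24, a surface protein of neuroblasts, and Nrxn3, a presynaptic adhesion molecule, fell by 1.09 ± 0.060 and 1.25 ± 0.079. Elavl3, an RNA-binding protein of neurons, and Gap43, a protein of growing axon tips, were among the 3 that rose, by 0.86 ± 0.074 and 0.38 ± 0.066.

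Mature neuron genes did not move one way. Of 16 tested, 5 rose and 5 fell, and the median was 0.05. Nefl and Nefm, which encode neurofilament subunits, had 8.14 and 5.87 CPM (Nefl) and 11.7 and 11.9 CPM (Nefm) in the nanosticker libraries, against 1.80 and 2.04 CPM (Nefl) and 4.88 and 3.70 CPM (Nefm) in the ultrasound libraries, and rose by 1.86 ± 0.25 and 1.46 ± 0.24. Syt1, the calcium sensor of synaptic vesicles, rose by 0.69 ± 0.078. Rbfox3, which encodes the neuronal marker NeuN, had 3.31 and 4.65 CPM in nanosticker and 5.65 and 4.73 CPM in ultrasound libraries and did not pass the test (log2 fold change -0.38 ± 0.21, adjusted p = 0.187). Map2, a dendritic microtubule protein, had 618 and 589.9 CPM in nanosticker and 686 and 701 CPM in ultrasound libraries, a log2 fold change of -0.20 ± 0.054 (adjusted p = 0.0118). Its adjusted p reached 0.125 when 1 library was left out, and the call was lost without nanosticker library 2, ultrasound library 1 or ultrasound library 2. The count of 5 lower genes was 1 without nanosticker library 2, 3 without ultrasound library 1 and 2 without ultrasound library 2.

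Genes of synapses and channels were split in the same way. Of 23 synapse and vesicle genes 6 rose and 7 fell, of 27 glutamate and GABA receptor genes 8 rose and 8 fell, and of 19 voltage-gated calcium channel genes 5 rose and 5 fell, with medians of -0.15, 0.00 and 0.02. Among the receptors, Gabrb2, a GABA-A receptor subunit, fell by 1.79 ± 0.16, whereas Gabra5, another subunit, had 25.9 and 26.6 CPM in the nanosticker libraries, against 9.82 and 10.7 CPM in the ultrasound libraries, and rose by 1.35 ± 0.12. Sv2a, a vesicle glycoprotein, rose by 0.80 ± 0.061 and Shank1, a postsynaptic scaffold, fell by 1.47 ± 0.12. Cacna1c, the pore of an L-type calcium channel, had 19.3 and 22.2 CPM in nanosticker and 31.1 and 30.4 CPM in ultrasound libraries, a log2 fold change of -0.57 ± 0.088 (adjusted p = 0.00025). Cacna1a, the pore of the P/Q-type channel, rose by 0.59 ± 0.072. With 1 of the 4 libraries left out the lower calls numbered 4 to 5 for synapse genes (11 without a control library) and 2 to 3 for calcium channels, and the higher calls for receptors 4 to 6.

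Channels that open under mechanical force were looked at next. Of 16 mechanosensitive channel genes tested, 3 rose and 1 fell, with a median of 0.15, against 17.6% of all tested genes that rose and 16.9% that fell. Without a control library 2 were lower. Piezo1, a stretch-gated cation channel, had 12.8 and 13 CPM in the nanosticker libraries and 12 and 11 CPM in the ultrasound libraries, a log2 fold change of 0.17 ± 0.15 that did not pass the test (adjusted p = 0.437). Both groups lay above the piezoelectric mean of 7.86 ± 0.0306 CPM and the control mean of 8.03 ± 1.85 CPM. Tmc7 and Tmem63b, members of channel families that respond to stretch, rose by 1.07 ± 0.14 and 0.30 ± 0.058, and Kcnk10, a potassium leak channel, fell by 0.41 ± 0.068. Trpc1 rose by 0.74 ± 0.10, but shares reads with other features.

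**Figure D4:**
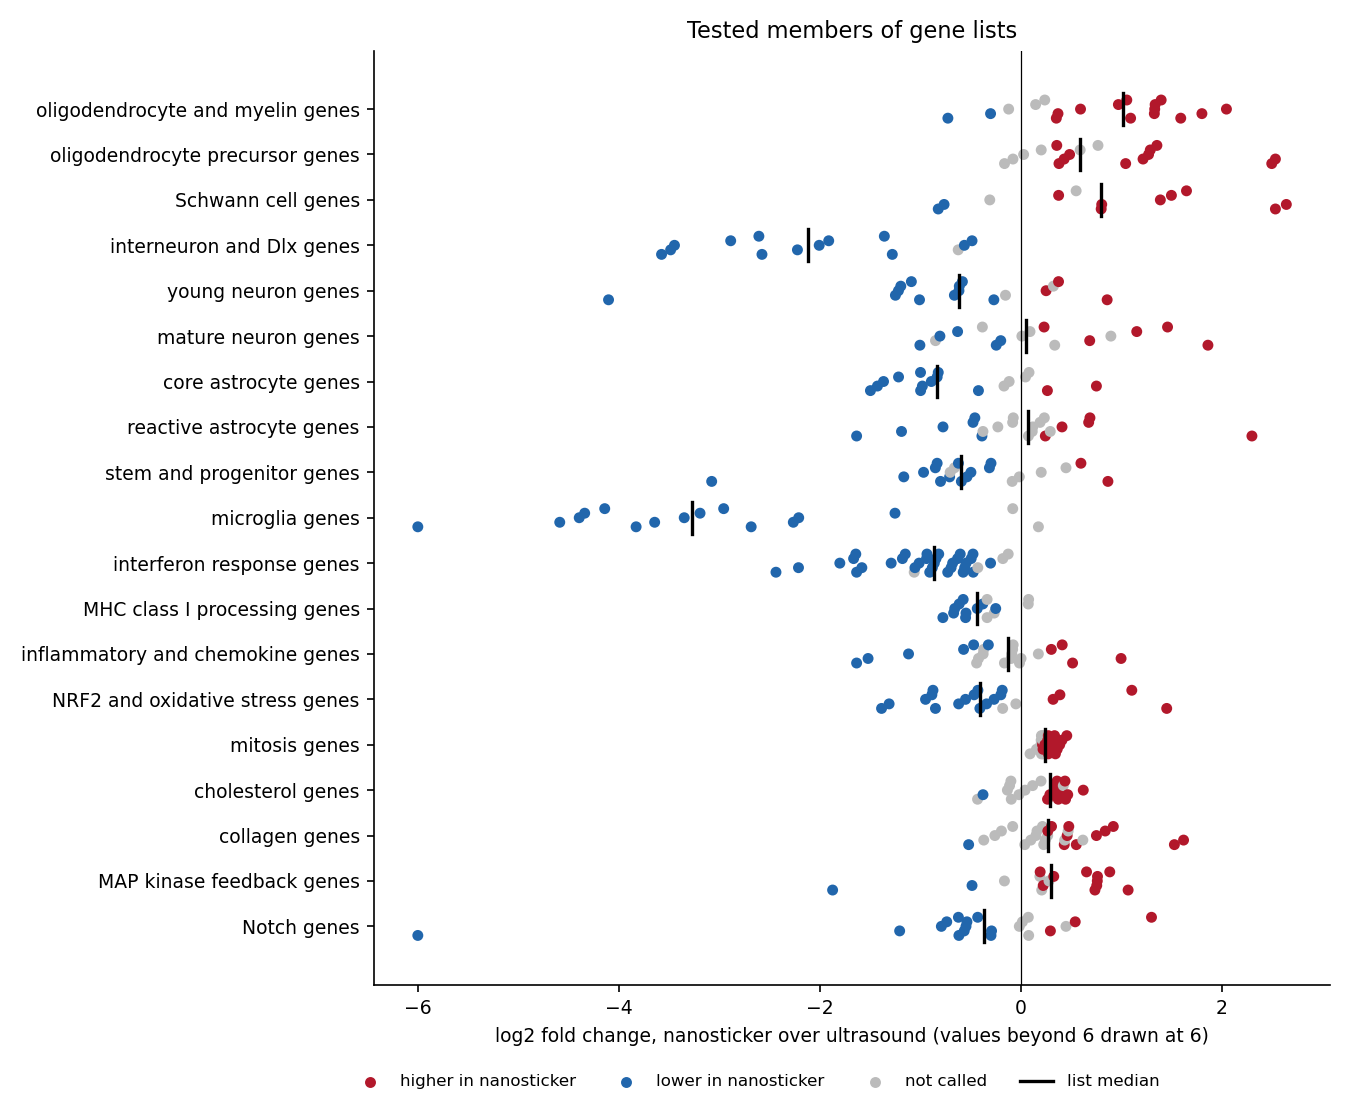
The log2 fold change, nanosticker over ultrasound, of every tested member of 19 gene lists (points), with the list median (black bar). The interneuron and microglia lists lie almost wholly below 0, interferon genes lie below 0 throughout, and most oligodendrocyte and precursor genes lie above 0; the 2 points drawn at -6 are Cx3cr1 and Dll4, which had no count in the nanosticker libraries.

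Astrocyte genes were mostly lower in the nanosticker libraries. Of 17 tested core astrocyte genes 11 fell and 2 rose, and the median log2 fold change was -0.83. Their summed level was 10214.6 and 10292.7 CPM in the nanosticker libraries, against 20114.7 and 19695.7 CPM in the ultrasound libraries. Gja1 (gene 24392, chromosome 20, 37876650 to 37889097, plus strand), the gap junction protein connexin 43, had 145 and 146 CPM in nanosticker and 406 and 416 CPM in ultrasound libraries, a log2 fold change of -1.50 ± 0.052 (adjusted p = 1.02e-09). Apoe (gene 25728, chromosome 1, 80612894 to 80616820, minus strand) had 3218 and 3332 CPM in nanosticker and 8851 and 8752 CPM in ultrasound libraries and changed by -1.43 ± 0.057. Aqp4, the water channel of astrocyte endfeet, had 759 and 706 CPM in nanosticker and 1892 and 1884 CPM in ultrasound libraries and changed by -1.37 ± 0.055. In all 3 genes each nanosticker library was more than 2-fold below each ultrasound library. Glul, the enzyme glutamine synthetase, rose instead, with 1211 and 1208 CPM in nanosticker and 740.3 and 695 CPM in ultrasound libraries and a log2 fold change of 0.75 ± 0.054, and Sparcl1, a secreted synapse-promoting protein, rose by 0.27 ± 0.052.

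Gfap, the intermediate filament of astrocytes, had 1056 and 1094 CPM in the nanosticker libraries, against 2585 and 2309 CPM in the ultrasound libraries, a log2 fold change of -1.19 ± 0.067 (adjusted p = 3.22e-08). The piezoelectric mean of 2506 ± 138 CPM lay at the ultrasound level, and the control mean of 1519.8 ± 66.2 CPM lay between nanosticker and ultrasound. The reactive astrocyte list as a whole was split, with 5 of 21 genes higher and 6 lower and a median of 0.08. Cp, which encodes the copper protein ceruloplasmin, rose by 0.68 ± 0.055 to 600.2 and 569.6 CPM in the nanosticker libraries, against 366 and 366 CPM in the ultrasound libraries. S1pr3, a lipid receptor, fell by 0.77 ± 0.056, and Cxcl10, a chemokine that also stands on the interferon list, fell by 1.63 ± 0.19. The 5 higher calls became 3 without nanosticker library 2.

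Stem and progenitor genes followed the astrocyte direction. Of 21 tested, 13 fell and 2 rose, with a median of -0.59, and the list includes genes that astrocytes also express, such as Slc1a3. Tnc (gene 116640, chromosome 5, 79789686 to 79874555, minus strand), the matrix protein tenascin-C of the stem cell niche, had 35.3 and 32.6 CPM in the nanosticker libraries, against 299 and 275 CPM in the ultrasound libraries. The piezoelectric mean of 325 ± 6.01 CPM and the control mean of 278 ± 24.8 CPM were near ultrasound, and the log2 fold change was -3.08 ± 0.080 (adjusted p = 8.17e-11). Egfr, the growth factor receptor of dividing progenitors, fell by 1.16 ± 0.078, Slc1a3, a glutamate transporter of radial glia and astrocytes, by 0.83 ± 0.054 and Nr2e1, a nuclear receptor of adult stem cells, by 0.85 ± 0.081. Nes fell by 0.59 ± 0.094 (adjusted p = 0.00105). Sox2 and Hopx rose, by 0.60 ± 0.057 and 0.87 ± 0.13, so Sox2 and Nes, both used to name neural stem cells, moved in opposite directions.

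Cell division genes were slightly higher. Of 25 mitosis genes 15 rose and none fell, with a median log2 fold change of 0.24, a change of small size. Over all tested genes 17.6% rose and 16.9% fell. Top2a, which untangles chromosomes, had 141 and 131 CPM in the nanosticker libraries, against 108 and 108 CPM in the ultrasound libraries, and Prc1, a spindle midzone protein, had 86.8 and 82.3 CPM in nanosticker and 61.3 and 66 CPM in ultrasound libraries. The groups did not overlap for either gene, with log2 fold changes of 0.34 ± 0.058 and 0.41 ± 0.068. Mki67, the proliferation marker, was at 161 and 141 CPM in nanosticker and 132 and 128 CPM in ultrasound libraries and did not pass the test (log2 fold change 0.22 ± 0.11, adjusted p = 0.164); its reads are partly shared. The 15 calls became 7 with DESeq2, 8 with scaling by library size alone, and 7 or 8 when any 1 of the 4 compared libraries was left out. Of 25 DNA replication genes 5 rose and 2 fell, with a median of 0.09; Tk1, thymidine kinase, rose by 0.74 ± 0.080, the 5 higher calls became 3 without ultrasound library 1, and the 2 lower calls became 1 without nanosticker library 1, nanosticker library 2 or ultrasound library 1.

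Most microglia genes were down to a few counts in the nanosticker libraries. Of 16 tested, 14 fell and none rose, and the median log2 fold change was -3.07 with Cx3cr1 at its bound. Most were rare in these cultures. Csf1r (gene 307403, chromosome 18, 56414493 to 56458300, plus strand), the growth factor receptor that microglia need, had 5 and 8 counts in the nanosticker libraries, against 70 and 56 counts in the ultrasound libraries. C1qa, C1qb and C1qc, the subunits of complement C1q, were as rare: C1qa had 4 and 3 counts in nanosticker and 63 and 44 in ultrasound libraries, C1qb 10 and 4 in nanosticker and 91 and 60 in ultrasound libraries, and C1qc 3 and 4 in nanosticker and 66 and 67 in ultrasound libraries. Each count in a nanosticker library was below each count of the same gene in an ultrasound library, and the log2 fold changes were -3.19 ± 0.32, -3.83 ± 0.41, -3.35 ± 0.37 and -4.14 ± 0.33.

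Cx3cr1, the fractalkine receptor of microglia, had 0 and 0 counts in the nanosticker libraries, against 11 and 10 counts in the ultrasound libraries, which is at least 6.71-fold lower when 3 counts over the group are taken as the floor. Aif1, which encodes the marker Iba1, had 2 and 1 counts in nanosticker and 24 and 18 in ultrasound libraries, and Tyrobp, a signalling adaptor, had 2 and 0 counts in nanosticker and 22 and 34 in ultrasound libraries. P2ry12, at 11 and 15 counts in nanosticker and 12 and 12 in ultrasound libraries, did not pass the test. With a stricter minimum on counts 6 of the 14 calls could still be made, since the other called genes were then not tested. Syk, a kinase of immune receptors that was named for its size of change, fell by 2.94 ± 0.27, and Rac2, a GTPase of blood cells chosen after its values were seen, fell by 3.33 ± 0.26.

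Interferon response genes were lower in the nanosticker libraries almost throughout. Of 35 tested, 31 fell and none rose, with a median log2 fold change of -0.86. Rsad2 (gene 65190, chromosome 6, 45655947 to 45669083, minus strand), which encodes the antiviral enzyme viperin, had 1.79 and 1.82 CPM in the nanosticker libraries, against 9.69 and 9.90 CPM in the ultrasound libraries. Oasl2, of the oligoadenylate synthetase family, had 6.68 and 5.53 CPM in nanosticker and 18.7 and 19.4 CPM in ultrasound libraries, and Irgm, an interferon-induced GTPase, had 18.7 and 17.7 CPM in nanosticker and 39.2 and 43 CPM in ultrasound libraries. The groups stood apart in each, with log2 fold changes of -2.44 ± 0.18, -1.64 ± 0.14 and -1.18 ± 0.092. Mx2, another antiviral GTPase, changed by -1.05 ± 0.057 on partly shared reads.

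Levels in the control libraries are given as a description, since no value against control was tested and both groups would share those libraries. The ultrasound mean lay above the control mean for 35 of the 35 interferon genes, and the nanosticker mean lay below it for 28 of them. Rsad2 averaged 4.67 ± 0.434 CPM in piezoelectric cells and 4.19 ± 0.0990 CPM in control cells, between the nanosticker and ultrasound levels. The microglia genes, which fell with the interferon genes, carry few reads: their part in the interferon result was not tested.

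**Figure D5:**
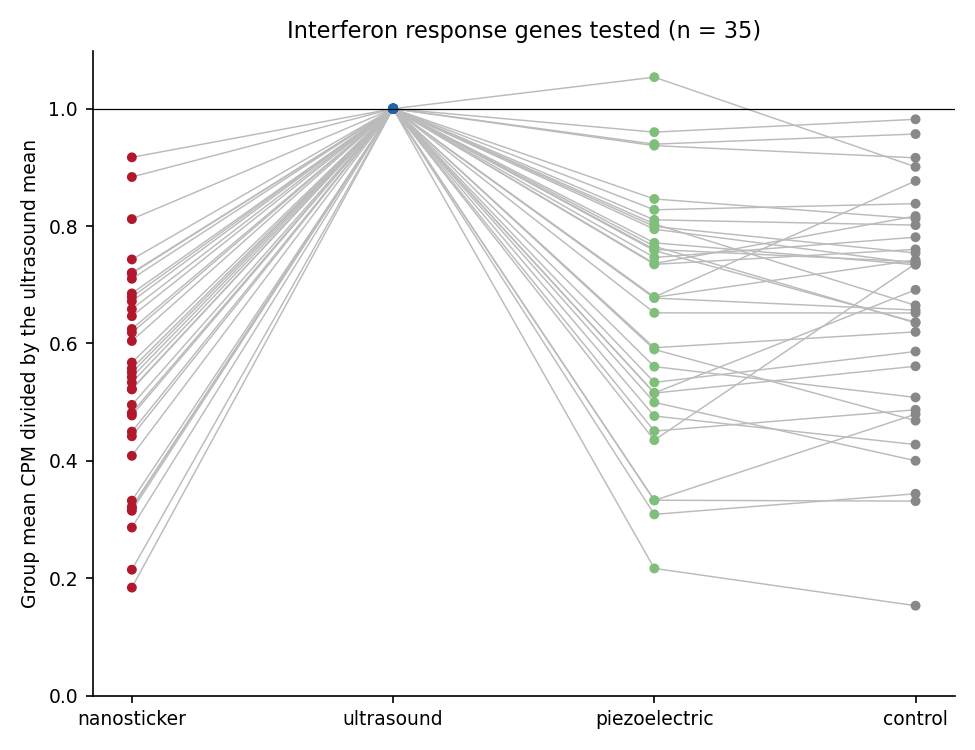
Mean CPM of each of the 35 tested interferon response genes in the 4 groups, divided by its ultrasound mean, with lines joining the values of a gene. The ultrasound group has the highest mean for all genes but 1, which is highest in the piezoelectric group, and every nanosticker value lies below 1.

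Genes of antigen presentation were lower as well, and those of inflammation held calls of both directions. Among all tested genes 17.6% rose and 16.9% fell. Of 15 genes of MHC class I processing 10 fell and none rose, with a median of -0.43. B2m, the light chain of class I molecules, had 578 and 562 CPM in the nanosticker libraries, against 809.9 and 852 CPM in the ultrasound libraries, a log2 fold change of -0.55 ± 0.058 (adjusted p = 1.01e-05). Psmb10, a subunit of the immunoproteasome, fell by 0.67 ± 0.10, and 6 of the 15 genes have partly shared reads; among genes with whole counts 6 were lower. Of 22 inflammatory and chemokine genes 4 rose and 6 fell, with a median of -0.13. Cxcl16, a membrane-bound chemokine, fell by 1.12 ± 0.14, and Cxcl12, which guides migrating cells, rose by 0.52 ± 0.071. The 4 higher calls became 2 without nanosticker library 1 or ultrasound library 1. Vcam1, an adhesion molecule of niche astrocytes and vessels, fell by 1.52 ± 0.057 on partly shared reads.

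Markers of cells of other origins held calls of both directions, beside 17.6% higher and 16.9% lower over all tested genes. Among 8 endothelial and mural genes tested, 3 were higher and 2 lower, among 13 fibroblast and meningeal genes 4 were higher and 4 lower, and among 14 ependymal and choroid plexus genes 2 were higher and 4 lower, with medians of 0.05, -0.07 and -0.25. Pdgfrb, a pericyte receptor, had 51 and 51.9 CPM in the nanosticker libraries, against 96.2 and 91.7 CPM in the ultrasound libraries, and fell by 0.87 ± 0.067. Kdr, a receptor for vascular growth factor, rose by 1.85 ± 0.27, and Col3a1, a collagen of connective tissue, by 0.84 ± 0.090. Foxj1, which drives the motile cilia of ependymal cells, fell by 0.80 ± 0.072. Ttr, the thyroid hormone carrier made by the choroid plexus, had 1.92 and 2.70 CPM in nanosticker and 10.1 and 11 CPM in ultrasound libraries, and fell by 2.20 ± 0.18. It had 48.1 ± 5.60 CPM in the piezoelectric group and 2.35 ± 0.506 CPM in the control group. The 4 lower fibroblast calls became 1 without ultrasound library 1 and 2 without any other of the compared libraries.

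Genes of the oxidative stress response under the factor NRF2 were mostly lower. Of 21 tested, 15 fell and 4 rose, and the median log2 fold change was -0.41. Gstm1, a glutathione transferase, had 453 and 429 CPM in the nanosticker libraries, against 1089 and 1098 CPM in the ultrasound libraries, and Srxn1, which repairs oxidised peroxiredoxins, had 58.6 and 59.4 CPM in nanosticker and 105 and 107 CPM in ultrasound libraries. Both were lower in each nanosticker library, with log2 fold changes of -1.31 ± 0.057 and -0.85 ± 0.060. Me1, an enzyme that makes NADPH, fell by 0.88 ± 0.060. Gstm2, a close relative of Gstm1, had 45.8 and 45.9 CPM in nanosticker and 14.7 and 18.8 CPM in ultrasound libraries and rose by 1.45 ± 0.10, and Gpx3, a secreted glutathione peroxidase, rose by 1.11 ± 0.10. The control mean of Gstm2, 56.3 ± 1.52 CPM, was above both groups.

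Other stress programmes were split. Of 25 genes of the integrated stress and unfolded protein responses 9 rose and 5 fell, with a median of 0.14. Vldlr was among those that rose, by 0.83 ± 0.070. Phgdh and Psat1, enzymes of serine synthesis, fell by 0.80 ± 0.053 and 0.84 ± 0.058, and Slc7a11, the cystine transporter, had 63 and 53.3 CPM in the nanosticker libraries, against 159.6 and 144 CPM in the ultrasound libraries, and fell by 1.39 ± 0.10. Of 22 p53 target genes 8 rose and 2 fell, with a median of 0.20. Gadd45a, a growth arrest gene, had 57.3 and 57.5 CPM in nanosticker and 28.4 and 25.4 CPM in ultrasound libraries and rose by 1.09 ± 0.088, while Btg2, an antiproliferative gene, fell by 1.13 ± 0.069. Of 13 heat shock genes 1 rose, Hspb1, by 0.41 ± 0.061, and 3 fell, Hspb8, Bag3 and Dnaja1, by 0.50 ± 0.061, 0.37 ± 0.058 and 0.30 ± 0.053. Slc7a11 is also counted on the NRF2 list, Btg2 on the immediate early list and Hspb1 on the reactive astrocyte list. With 1 of the 4 libraries left out the higher calls numbered 4 to 5 on the integrated stress list and 5 to 7 on the p53 list, and without a control library the lower calls numbered 5 on the heat shock list and 4 on the p53 list.

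Of 23 tested cholesterol genes 12 were higher, 1 was lower and 10 did not pass the test, with a median of 0.29. Dhcr7, the last enzyme of one branch of cholesterol synthesis, had 195 and 186 CPM in the nanosticker libraries, against 124 and 124 CPM in the ultrasound libraries, a log2 fold change of 0.62 ± 0.053 (adjusted p = 1.21e-06). Srebf2, the master regulator of the pathway, and Idi1, an enzyme of it, rose by 0.47 ± 0.058 and 0.45 ± 0.059. Abca1, which exports cholesterol, was the 1 that fell, by 0.38 ± 0.081; leaving out a control library made that count 3. Of 25 lysosome genes 8 rose and 3 fell, with a median of 0.09, and Npc1, which carries cholesterol out of the lysosome, had 244 and 241 CPM in nanosticker and 149 and 144 CPM in ultrasound libraries, a log2 fold change of 0.73 ± 0.054. The 8 higher lysosome calls became 5 without nanosticker library 1, nanosticker library 2 or ultrasound library 2.

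Energy and iron genes held calls of both directions, apart from those of the respiratory chain. Over all tested genes 17.6% rose and 16.9% fell. Of 25 respiratory chain genes 2 rose, Cycs and Cox5b, and none fell, with a median of 0.05; Cox5b was not called with the replicate number as a block, and Cycs and Cox5b were both lost without ultrasound library 1. Without a control library 4 respiratory chain genes were higher and 2 lower. Cycs shares reads with other features, so its value is uncertain. Of 23 hypoxia and glycolysis genes 4 rose and 8 fell, with a median of -0.05. Slc2a1, the glucose transporter of glia and vessels, had 104 and 108 CPM in the nanosticker libraries, against 191 and 172 CPM in the ultrasound libraries, and fell by 0.78 ± 0.062, whereas Ndrg1, a gene that low oxygen induces, rose by 0.73 ± 0.078. The 8 lower calls became 4 without nanosticker library 1 or ultrasound library 1. Of 13 iron and transferrin genes 1 rose, Cp, and 3 fell, Hmox1, Tf and Tfrc, with a median of -0.11. Tf and Tfrc both lost their call without nanosticker library 1 or ultrasound library 1, Tfrc also without nanosticker library 2 and Tf also without control library 2. The lower calls numbered 1 without ultrasound library 1, and the higher calls 2 without control library 1 and 3 without control library 2.

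Among signalling pathways, Notch genes leaned lower and genes that report MAP kinase activity leaned higher. Of 20 Notch genes 12 fell and 3 rose, with a median of -0.36. Dll3 and Dll1, ligands of the pathway, fell by 0.79 ± 0.070 and 0.56 ± 0.071, and Hey2, a target, fell by 0.74 ± 0.089. Jag2, another ligand, had 19.7 and 18.9 CPM in the nanosticker libraries, against 7.25 and 8.43 CPM in the ultrasound libraries, and rose by 1.30 ± 0.13, and Rbpj, the DNA-binding partner of the Notch receptors, rose by 0.30 ± 0.055. Of 16 MAP kinase feedback genes 10 rose and 2 fell, with a median of 0.30. Ccnd1, the cyclin that growth factors induce, had 244 and 263 CPM in nanosticker and 147 and 153 CPM in ultrasound libraries and rose by 0.76 ± 0.060, and Spred3, a feedback inhibitor, rose by 0.89 ± 0.069, whereas the phosphatase Dusp4 fell by 1.87 ± 0.22. The 10 calls became 5 without nanosticker library 1, 6 without nanosticker library 2 or ultrasound library 1, and 6 with DESeq2.

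Immediate early genes, which switch on within minutes of stimulation, gave no common direction on day 5. Of 27 tested, 6 rose and 6 fell, with a median of -0.07. Fos had 106 and 107 CPM in the nanosticker libraries, against 82 and 81.6 CPM in the ultrasound libraries, a log2 fold change of 0.38 ± 0.063 (adjusted p = 0.000459). Both groups stood above the piezoelectric mean of 51.4 ± 2.87 CPM and the control mean of 44.8 ± 0.403 CPM. Junb, which pairs with Fos, rose by 0.52 ± 0.078, and Fosl1, another member of the Fos family, fell by 1.01 ± 0.15. Bdnf, the neurotrophin that neuronal activity induces, was near the limit of detection at 0.397 and 1.01 CPM in nanosticker and 0.514 and 0.830 CPM in ultrasound libraries, and the groups overlapped (adjusted p = 0.949).

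Developmental pathways held genes of both directions. Of 21 BMP and Id genes 9 rose and 5 fell, with a median of 0.04. Bmp4 had 110.3 and 116 CPM in the nanosticker libraries, against 54.4 and 55.3 CPM in the ultrasound libraries, a log2 fold change of 1.04 ± 0.072, and Id1, its direct target, had 91.3 and 94.5 CPM in nanosticker and 49.2 and 47.2 CPM in ultrasound libraries and rose by 0.95 ± 0.085. Id4, of the same family as Id1, fell by 0.65 ± 0.068 and Bmp6 fell by 0.44 ± 0.077. Of 26 Wnt genes 6 rose and 11 fell, with a median of -0.16; Tcf7l2, the pathway's transcription factor in oligodendrocytes, rose by 1.25 ± 0.074, and Lgr5, a target and receptor, fell by 1.44 ± 0.11. On the Hippo and YAP list 5 of 22 genes rose and 6 fell, with a median of -0.01, and Yap1, the coactivator itself, had 84.1 and 88.3 CPM in nanosticker and 125 and 115 CPM in ultrasound libraries, a log2 fold change of -0.47 ± 0.065. The higher Wnt calls numbered 3 without ultrasound library 1 or ultrasound library 2 and 3 with DESeq2. The lower Wnt calls numbered 4 without nanosticker library 1, 5 without ultrasound library 2, 6 without ultrasound library 1, 7 without nanosticker library 2, 7 with the replicate number as a block and 4 with DESeq2. Those of the BMP list became 3 without nanosticker library 2, ultrasound library 1 or ultrasound library 2.

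Growth factors and their receptors rose more often than not, with 16 of 31 higher and 5 lower and a median of 0.31. The list shares Igf2 with the fibroblast and meningeal list, Erbb3 with the Schwann cell list and Egfr with the stem and progenitor list. Igf2 (gene 24483, chromosome 1, 215828102 to 215839081, plus strand), an insulin-like growth factor, had 33.6 and 34.9 CPM in the nanosticker libraries, against 4.04 and 3.00 CPM in the ultrasound libraries. Its log2 fold change was 3.28 ± 0.18 (adjusted p = 2.54e-08), with a mean of 3.26 ± 0.892 CPM in the piezoelectric group and 1.23 ± 0.185 CPM in the control group. Pdgfa, the ligand on which oligodendrocyte precursors depend, had 50.0 and 52.7 CPM in nanosticker and 22 and 22.7 CPM in ultrasound libraries and rose by 1.20 ± 0.094. Cntf, a survival factor made by astrocytes, fell by 0.70 ± 0.079. Axon guidance genes were split, with 15 of 38 higher and 15 lower and a median of 0.03. Sema4d, a semaphorin of oligodendrocytes, had 47.3 and 47.1 CPM in nanosticker and 16.3 and 15.8 CPM in ultrasound libraries and rose by 1.55 ± 0.085. Slit1, a repellent made by neurons, had 2.05 and 1.55 CPM in nanosticker and 11.4 and 8.37 CPM in ultrasound libraries and fell by 2.45 ± 0.25.

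Matrix genes moved both ways. Of 27 collagen genes 11 rose and 1, Col22a1, fell, with a median of 0.27, and the fall of Col22a1 was lost with DESeq2, with limma-voom and without nanosticker library 1, nanosticker library 2 or ultrasound library 1. Without a control library 2 to 3 collagen genes were lower. Col5a3, a fibrillar collagen, had 172 and 173 CPM in the nanosticker libraries, against 92.2 and 90.0 CPM in the ultrasound libraries, and rose by 0.92 ± 0.069. Of 29 glycoprotein and proteoglycan genes 9 rose and 6 fell, with a median of 0.09. Tnn, which encodes tenascin-N, had 5.56 and 4.92 CPM in nanosticker and 0.449 and 0.192 CPM in ultrasound libraries and rose by 4.0 ± 0.38, the opposite direction to its relative Tnc. Thbs2, a thrombospondin, had 78.2 and 76.9 CPM in nanosticker and 37.2 and 40.7 CPM in ultrasound libraries and rose by 0.99 ± 0.082. Of 20 metalloproteases and inhibitors 5 rose and 6 fell, with a median of -0.01; Adamts4, a protease of oligodendrocytes that cuts proteoglycans, had 335 and 347 CPM in nanosticker and 93.8 and 93.3 CPM in ultrasound libraries and rose by 1.87 ± 0.066, while Mmp2 and Mmp14, which degrade collagen, fell by 1.58 ± 0.11 and 1.09 ± 0.075. The 6 lower glycoprotein calls became 3 without nanosticker library 1, ultrasound library 1 or ultrasound library 2.

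The next genes met the rule for naming and belong to no list above. Trh (gene 25569, chromosome 4, 124110716 to 124113242, minus strand), the precursor of thyrotropin-releasing hormone, had 102 and 102 CPM in the nanosticker libraries, against 11.1 and 15.3 CPM in the ultrasound libraries, a log2 fold change of 2.94 ± 0.13 (adjusted p = 3.46e-08). Its mean was 5.44 ± 0.925 CPM in the piezoelectric group and 4.06 ± 0.464 CPM in the control group, so ultrasound lay between control and nanosticker. Pnlip (gene 25702, chromosome 1, 279798187 to 279811372, plus strand), a lipase best known from the pancreas, had 223 and 220.2 CPM in nanosticker and 34 and 34.2 CPM in ultrasound libraries, a log2 fold change of 2.70 ± 0.075 (adjusted p = 1.35e-10). Here ultrasound was the lowest group, with 74.8 ± 3.01 CPM in the piezoelectric and 79.6 ± 7.99 CPM in the control group. Krt19, an epithelial keratin, had 11.5 and 10.1 CPM in nanosticker and 0.770 and 0.639 CPM in ultrasound libraries and changed by 3.92 ± 0.25, and Sostdc1, a secreted BMP and Wnt antagonist, had 9.86 and 9.17 CPM in nanosticker and 0.578 and 0.639 CPM in ultrasound libraries and changed by 3.95 ± 0.26. Sspo, Tmprss5, Ass1, Casr, Frem3 and Serpinb1a were also among the 14 largest increases, with log2 fold changes between 2.50 and 2.81 and levels no higher than 13.4 CPM.

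Among the genes that met the rule for naming, the largest decrease was that of Prokr2 (gene 192649, chromosome 3, 125006180 to 125021020, minus strand), the prokineticin receptor that young interneurons of the olfactory bulb carry. It had 1.19 and 1.55 CPM in the nanosticker libraries, against 62.4 and 54.8 CPM in the ultrasound libraries, a log2 fold change of -5.41 ± 0.13 (adjusted p = 6.28e-11). The piezoelectric group averaged 73.5 ± 3.32 CPM and the control group 78 ± 2.04 CPM, so the nanosticker libraries alone were near 0 CPM. Sez6l2, a neuronal surface protein, had 3.77 and 3.78 CPM in nanosticker and 27.2 and 23.7 CPM in ultrasound libraries, Grin2c, a subunit of the NMDA receptor, had 2.71 and 4.32 CPM in nanosticker and 26.3 and 20.9 CPM in ultrasound libraries, and Scrt2, a neuronal transcriptional repressor, had 1.99 and 2.29 CPM in nanosticker and 14.1 and 13.1 CPM in ultrasound libraries. The groups were more than 4-fold apart in each, with log2 fold changes of -2.75 ± 0.12, -2.75 ± 0.19 and -2.67 ± 0.16. Amer3, Mpped1, Islr2 and Fcrl2, all at or below 10.3 CPM in the ultrasound libraries, changed by -4.0 ± 0.32, -3.08 ± 0.23, -2.86 ± 0.40 and -2.84 ± 0.20. Neuropeptide genes were split, with 4 of 13 higher and 4 lower and a median of -0.21; Penk, the enkephalin precursor, rose by 0.65 ± 0.075 and Chga, chromogranin A, fell by 1.91 ± 0.17. The lower neuropeptide calls became 2 without nanosticker library 1 or ultrasound library 1 and 2 with DESeq2.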

How the data were processed

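Messenger RNA of rat neural stem cells, 8 samples grouped as labelled, was sequenced after 5 days. The protocol text of the labels gives oligo(dT) enrichment, fragmentation and random hexamer priming. The authors deposited 1 table of 18374 genes that holds, per the file headers, FPKM, TPM and read counts of every library. These deposited values are estimated counts: 10.5% of them are not whole (tolerance 0.005), and a gene with such counts is called uncertain or said to share reads. TPM values, which the authors scaled for length and library, served for levels per length, and the deposited FPKM values served to derive effective lengths. The authors' 27 columns of averages and tests and their correlation matrix were not used. Per the submitters' processing notes the build is Rnor 6.0, to which the table's coordinates refer. Aligner, counting tool and strand setting were not given in the sources used here; overlapping and antisense genes may therefore trade reads.

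The counts, rounded to whole numbers, went into edgeR 4.0.16 (R 4.3.3). After filterByExpr (minimum count 10), 14336 genes remained. TMM scaling and 1 robust quasi-likelihood model with a mean for each of the 4 groups followed; the biological coefficient of variation was 7.09% and 4 residual degrees of freedom were left. Tests were two-sided, with Benjamini-Hochberg adjustment over every tested gene and a threshold of 0.05. The SE was obtained as the log2 fold change over the square root of the F statistic. CPM values carry the TMM factors; distances and principal components used log2 CPM with a prior count of 2. The steps were tested on simulated counts. An exact permutation test of 2 against 2 libraries cannot go below 0.333 and was not run.

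The rule for named genes asked for an adjusted p under 0.05, at least 5 CPM on average in the nanosticker or the ultrasound group, no overlap of the 4 libraries, whole counts and no placeholder symbol, and took the 14 largest increases and the 14 largest decreases. It added up to 4 members of a list with the smallest adjusted p, up to 2 members called against the list's direction, and 13 genes chosen by name: the stem cell, neuron and glia markers Sox2, Nes, Tubb3, Dcx, Map2, Rbfox3, Gfap and Olig2, as well as Mki67, Fos, Bdnf, Cacna1c and Piezo1. Any other gene is said to be chosen after its values were seen. Some genes that met the rule are not reported here. The comparison, the 43 lists (916 symbols, 909 found in the table, 843 tested) and the rules were chosen with earlier results of these data known. List counts leave out members that failed the low-count filter.

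Alternatives were DESeq2 1.42.0, limma-voom (limma 3.58.1), size factors by relative log expression, scaling by library size alone, no low-count filter, a stricter one (1 CPM in 2 libraries, mean count 20), a replicate block, fits of fewer groups, removal of length trends (lowess, span 0.3), genes with whole counts only, and each library left out in turn.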

Additional observations from a re-analysis of the deposited data

How the results depend on the processing

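Under the 20 alternatives no gene was called in the opposite direction, and of 234 calls of named genes 224 held under all of them. Map2, Snap25, Plekhb1, Fbn1, Tyms, Col22a1, Cycs, Cox5b, Tf and Tfrc lost their call under at least 1. Most named genes were picked for a small adjusted p or a large change in the main fit. How often their calls held therefore does not stand for all 4938 calls. DESeq2 called 3400 genes, 1795 higher and 1605 lower. Of all main calls it kept 67.9% in the same direction, and limma-voom kept 95.6%. limma-voom called 4792, relative log expression factors 4938, library size alone 5041 (2121 higher and 2920 lower), no filter 4942 and the stricter filter 4780. The 2 groups alone gave 6210 calls, the fit without control libraries 6236, removal of the length trend 5644 and genes with whole counts 4762. Leaving out 1 library gave 3199 to 6251 calls, 1657 to 3114 higher and 1542 to 3164 lower; the lowest came without ultrasound library 1, and the highest without a control library. Length trends differed between replicates (Spearman's rho with length -0.46 for control library 1 minus control library 2, and 0.04 for the nanosticker mean minus the ultrasound mean, across 13211 genes). Labels give the same replicate numbers to each group, but same-numbered nanosticker and ultrasound libraries did not deviate together (correlation -0.136 across genes). With the replicate block 4560 genes were called, 2326 higher and 2234 lower, and with the numbers crossed, an alternative chosen after seeing the data, 4682. Mitosis genes called higher numbered 7 with DESeq2, 8 with library size alone and 7 to 18 with 1 library left out. Microglia genes called lower numbered 6 under the stricter filter, which tested fewer genes. The cause of the other shifts was not tested. Of the remaining list counts 1410 stayed within 1.5 times and 130 moved further. Depth limits the genes with few counts, above all those of microglia, where intervals on single counts are wide.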

Other observations

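Some genes that the naming rule did not take, all but Syt4 and Dll4 outside the lists, were chosen after their values were seen. Txnip, which encodes the thioredoxin-interacting protein that responds to glucose, had 133 and 133 CPM in the nanosticker libraries and 25.9 and 22.4 CPM in the ultrasound libraries, a log2 fold change of 2.46 ± 0.11. Gpd1, glycerol-3-phosphate dehydrogenase, which oligodendrocytes express, had 201 and 206 CPM in nanosticker and 58.7 and 60.4 CPM in ultrasound libraries, with 23.7 ± 1.18 CPM in control libraries. Both values exceeded the control level, and the log2 fold change between nanosticker and ultrasound was 1.77 ± 0.071. Syt4, a vesicle protein on the synapse list, had 279.7 and 262 CPM in nanosticker and 63.9 and 52.6 CPM in ultrasound libraries and rose by 2.22 ± 0.18 (adjusted p = 0.000249). Adam11, a neuronal surface protein without protease activity, rose by 2.30 ± 0.062, and Cdkn1c, a cell cycle inhibitor, by 1.33 ± 0.075.

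Further neuronal genes fell. Synpr, a vesicle protein of interneurons, had 15.4 and 15.9 CPM in nanosticker and 54.1 and 56.7 CPM in ultrasound libraries and fell by 1.82 ± 0.079. Bcl11b, a transcription factor of projection neurons and interneurons, fell by 1.83 ± 0.18, and Crmp1 and Nsg2, proteins of young neurons, fell by 1.16 ± 0.052 and 1.16 ± 0.055. Ntsr2, a neurotensin receptor of astrocytes, had 36 and 33.6 CPM in nanosticker and 119 and 113 CPM in ultrasound libraries and fell by 1.74 ± 0.074. Scd, a fatty acid desaturase, and Scd2, a related enzyme, fell by 1.24 ± 0.062 and 0.52 ± 0.059, both on partly shared reads. Krt8 and Krt18, keratins like Krt19, had few reads and did not pass the test, with log2 fold changes of -0.12 ± 0.28 and 0.57 ± 0.65.

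A few called genes with whole counts had no count in 1 of the groups. Ccl3, a chemokine of immune cells, had 0 counts in the nanosticker group and 42 in the ultrasound group, at least 13.4-fold lower when 3 counts over the group are the floor. Tlr7, a receptor for viral RNA, had 0 in the nanosticker group and 30 in the ultrasound group (at least 9.58-fold lower), and Dll4, a Notch ligand, had 0 in the nanosticker group and 16 in the ultrasound group (at least 5.11-fold lower). Nppb, a natriuretic peptide, had 29 counts in the nanosticker group and 0 in the ultrasound group, at least 10.1-fold higher.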
